A study of Mus musculus with 6 samples.

Results

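The genes encoding oxidative phosphorylation subunits were compared between the kidneys of MRL and LPR mice. A gene was included when its name on the array started with Nduf, Uqcr, Atp5 or Cox followed by a digit from 4 to 8, or when it was Sdha, Sdhb, Sdhc or Sdhd. This gave 94 genes of the 36870 gene names on the array, measured by 146 of its 56605 probes. Of these 94 genes, 38 belonged to complex I, 8 were assembly factors of complex I that carry the same name stem, 4 belonged to complex II, 8 to complex III, 18 to complex IV and 18 to complex V. By current use Ndufa4 is counted with complex IV, Atp5s and Atp5sl are not subunits, and Atp5c1-ps is a pseudogene of Atp5c1, but all were kept as the name rule placed them.

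TA was carried out on kidneys of 3 female MRL/MpJ mice, the controls, and 3 female MRL/MpJ-Fas lpr/lpr mice, called MRL and LPR, all 6 months old. LPR mice carry the lpr mutation of Fas on the MRL background, which the controls share, and they develop lupus-like nephritis. The labels name no treatment of either group. Each mouse gave 1 single-colour array, and the 6 arrays lay on 1 slide, so that p-values measure the spread between 3 and 3 mice.

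Oxidative phosphorylation is carried out by 5 protein complexes of the inner mitochondrial membrane. Complexes I and II pass electrons from NADH and succinate to ubiquinone, complex III passes them on to cytochrome c, complex IV hands them to oxygen, and complex V makes ATP from the resulting proton gradient. Most subunits are encoded in the nucleus, and a few core subunits are encoded in mitochondrial DNA and are outside the name rule. In the kidney the proximal tubule and the thick ascending limb are rich in mitochondria, since they drive sodium reabsorption.

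The promoters are shown first, since the subunits are known to share regulators. All 94 genes were matched to RefSeq entries (GRCm38.p6), 91 by symbol and 3 by accession, and 77 of them had 83 promoter windows of 250 bases before to 50 bases after the annotated start. The letters searched, on both strands, were CGCATGCG, the core of the NRF1 palindrome, AAGGTCA, read by estrogen-related receptors, AAGATGGCG for YY1, CCGGAAG for ETS factors such as GABPA, and CCAAT for NF-Y. The first 3 promoters hold the NRF1 core and stand for a subunit each of complexes IV, III and V. They are followed by Ndufa10, which passed the threshold, and by Cox7a1, the muscle form of a complex IV subunit, neither of which held the NRF1 core. Capitals mark the letters found, in either orientation.
Cox6a1, chr5:115348909-115349208, minus strand: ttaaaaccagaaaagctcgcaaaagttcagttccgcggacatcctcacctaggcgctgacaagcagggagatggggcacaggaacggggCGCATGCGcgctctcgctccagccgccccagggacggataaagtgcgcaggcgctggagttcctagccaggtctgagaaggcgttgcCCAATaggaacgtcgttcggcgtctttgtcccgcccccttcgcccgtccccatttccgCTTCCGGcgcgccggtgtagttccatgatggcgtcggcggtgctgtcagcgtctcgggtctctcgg
Uqcrc1, chr9:108936398-108936697, plus strand: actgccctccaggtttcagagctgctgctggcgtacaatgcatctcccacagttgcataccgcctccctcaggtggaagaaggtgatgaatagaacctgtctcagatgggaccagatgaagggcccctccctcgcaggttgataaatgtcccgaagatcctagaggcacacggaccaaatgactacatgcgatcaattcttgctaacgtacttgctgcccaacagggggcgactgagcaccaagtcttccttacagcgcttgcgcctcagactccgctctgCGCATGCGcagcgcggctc
Atp5k, chr5:108434350-108434649, minus strand: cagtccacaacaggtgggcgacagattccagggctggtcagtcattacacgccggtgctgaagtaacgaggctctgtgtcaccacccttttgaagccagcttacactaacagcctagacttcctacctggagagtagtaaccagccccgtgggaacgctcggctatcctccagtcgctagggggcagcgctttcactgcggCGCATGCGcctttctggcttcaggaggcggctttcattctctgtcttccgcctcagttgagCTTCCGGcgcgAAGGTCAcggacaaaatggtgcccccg
Ndufa10, chr1:92473709-92474008, minus strand: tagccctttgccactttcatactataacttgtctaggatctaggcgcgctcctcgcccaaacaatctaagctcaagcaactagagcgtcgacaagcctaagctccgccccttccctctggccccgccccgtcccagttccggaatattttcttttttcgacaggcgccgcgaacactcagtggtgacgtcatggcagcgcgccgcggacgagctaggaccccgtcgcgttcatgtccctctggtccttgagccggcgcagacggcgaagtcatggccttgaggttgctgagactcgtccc
Cox7a1, chr7:30183921-30184220, plus strand: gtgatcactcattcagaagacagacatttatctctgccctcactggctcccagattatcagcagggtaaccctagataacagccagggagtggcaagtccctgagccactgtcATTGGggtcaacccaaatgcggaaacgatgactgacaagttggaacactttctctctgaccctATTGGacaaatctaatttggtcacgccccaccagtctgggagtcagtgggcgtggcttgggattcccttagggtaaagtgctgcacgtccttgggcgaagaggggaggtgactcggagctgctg

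The NRF1 core was found in 11 of the 83 windows (13.3%), against 1.87% of all 32851 promoters in the table and 2.52% of those of protein-coding genes. The whole palindrome, with 1 more G before and 1 more C after the core, was found in 7 windows (8.43%), against 0.971% of all promoters. The YY1 letters were found in 10 windows, against 1.40% of all promoters, the ETS letters in 21.7% against 8.86%, and the letters of estrogen-related receptors in 9.64% against 4.72%. CCAAT was found in 43.4% against 37.4%. These are descriptions of letters, with no test. The 11 genes whose promoter held the NRF1 core had a median log2 change of -0.24 in LPR mice, and the 66 others with a promoter and a tested probe had -0.28. Cox6a2 and Ndufs1 were not among the 77 genes.

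Signals are given on the log2 scale relative to the 75th percentile of each array, and a log2 change is LPR minus MRL. Of the 94 genes, 93 had a probe clearly above background on 3 or more of the 6 arrays, which was the condition for a test, and the brightest tested probe stands for the gene. Cox8c, a testis form of a complex IV subunit, was above background on 0 arrays and was not tested. The 75th percentile was 700 to 751 intensity units on 5 arrays and 930 on that of LPR 1. The share of spots well above background ran from 69.6% to 73.5%. Fas, the mutated gene, did not settle the labels. Its brighter probe gave a log2 change of -0.47 (limma, adjusted p = 0.235). The second one cleared the background in 0 of 3 MRL and 3 of 3 LPR mice. Its limma log2 change was 1.89 (adjusted p = 0.0337), which rests on MRL signals not above background. With MRL mice set to the lowest signal above background on each array, LPR signals were at least 1.47-fold higher, a bound that was not tested. Where the probes lie relative to the mutation was not examined.

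The log2 changes of the subunits in LPR mice were small and nearly all negative, and few single genes passed the threshold. The median log2 change over the 93 genes was -0.28, a signal of 0.826 times the MRL level, and 90 of the 93 changes were negative. Most genes on the arrays were negative as well, 17349 of all 25799 tested genes. So were 758 of 1157 other genes whose mean signal lay in the middle 50% of the members' range. Counts of negative changes given below are to be read beside these shares. The median over all 25799 tested genes was -0.12, or 0.918 times, and the middle 50% of the members lay between -0.31 and -0.23, whereas the middle 50% of all genes lay between -0.30 and 0.07. In limma with Benjamini-Hochberg adjustment over all probes, 3 members passed an adjusted p of 0.05 as lower in LPR mice, namely Cox6a2, Ndufs1 and Ndufa10. Among all tested genes 5.39% were called lower, so that 3 of 93 is near the background share. No member was higher, 0 of 93 against 7.12% of all genes, and no member was higher at an unadjusted p under 0.05 either, against 10.6% of all genes. The methods' t-test also called 0 members higher and 4 lower, against 4.9% and 3.04% of all genes. At an unadjusted p under 0.05, 35 members were lower, against 18.7% of all genes.

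All LPR mice lay below all MRL mice for 52 of the 93 members, and this was so for 25.4% of all genes. The reverse order occurred for 0 members and for 11.8% of all genes. Members share 1 RNA sample per mouse, so these counts are not independent, and the difference between the members and the other genes was not tested. In RNA of the kidney as a whole, fewer cells of a type and less RNA per cell cannot be told apart.

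**Figure D1:**
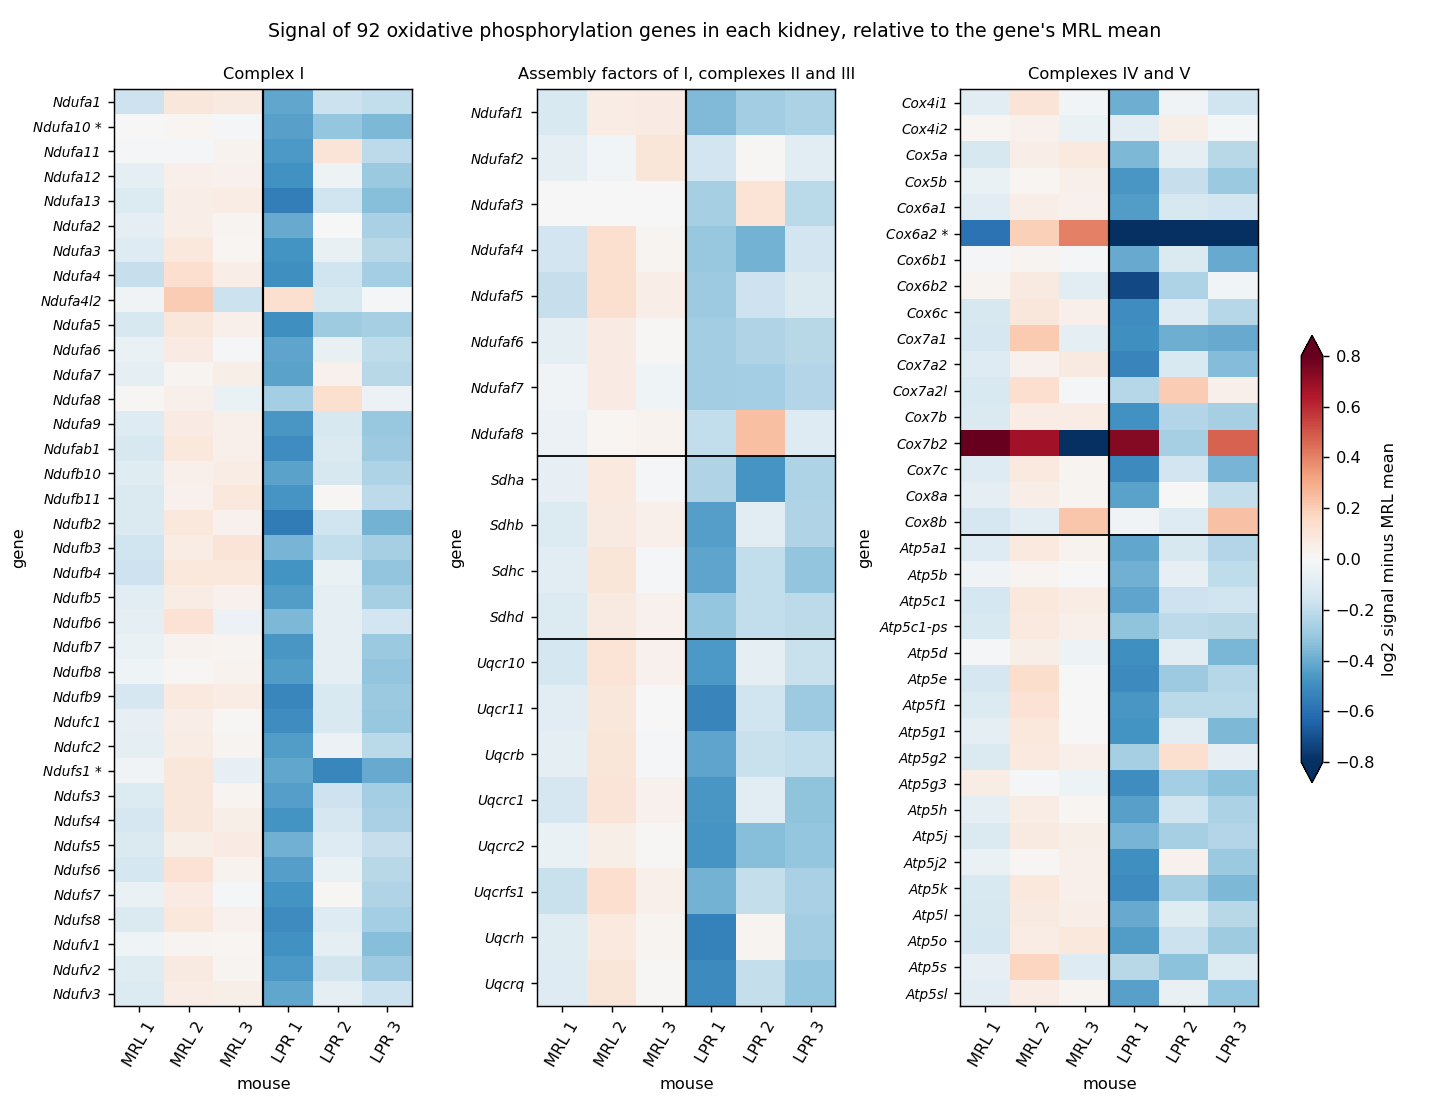
Log2 signal of 92 of the 93 tested genes in each mouse, minus the mean of the 3 MRL mice for that gene. Rows are genes, grouped by complex with black lines, columns are mice, and an asterisk marks an adjusted p under 0.05. Most LPR cells are blue, the column of LPR 1 is the darkest, and Cox6a2 runs beyond the colour range in the LPR mice.

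The size of the difference varied between LPR mice. The median deviation of the members from the MRL mean was -0.10, 0.07 and 0.03 in MRL 1 to 3, and -0.44, -0.12 and -0.25 in LPR 1 to 3. LPR 2 thus lay close to MRL 1, and LPR 1 lay farthest away. LPR 1 was the lowest of the 6 mice for 86 of the 93 genes and LPR 2 was the highest LPR mouse for 76 of them. Over all 25799 tested genes these counts were 7507 and 11337. The 7 exceptions to LPR 1 as the lowest were Ndufs1, Sdha, Ndufaf4, Atp5s, Ndufa4l2, Cox7b2 and Cox8b. Over all tested genes the medians were -0.14, -0.07 and -0.10 in LPR 1 to 3. Over the 1157 other genes whose mean signal lay in the middle 50% of the members' range they were -0.23, 0.04 and -0.06, and their median log2 change was -0.09. LPR 1 was the lowest of the 6 mice for 756 of those 1157 genes and LPR 2 the highest LPR mouse for 887. LPR 1 was thus also the lowest mouse in the median of those genes, and its array had the highest 75th percentile. The part of these array differences in the result was not tested.

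Without LPR 1 the median of the members was -0.20 and that of all genes -0.11. The slide position was not balanced between the groups. LPR 1 lay in the slide row of the 3 MRL mice and the other 2 LPR mice in another row. Within the shared row the median difference of the members between LPR 1 and the MRL mice was -0.44. Within slide columns it was -0.02 for LPR 2 against MRL 1 and -0.31 for LPR 3 against MRL 2. The shift of the members was thus not present in the pair of LPR 2 and MRL 1, where all genes gave -0.06.

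**Figure D2:**
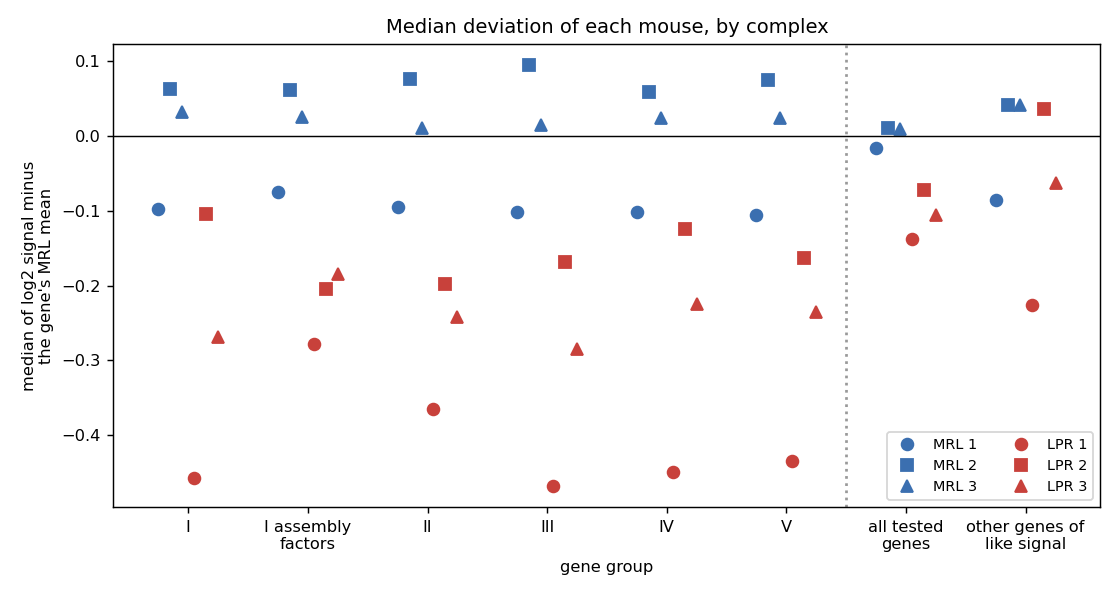
Median of log2 signal minus the gene's MRL mean for each mouse, over the genes of each complex, all tested genes, and 1157 other genes of like signal. Blue symbols are MRL mice and red symbols LPR mice. For complex I, LPR 2 at -0.10 lies beside MRL 1 at -0.10, and LPR 1 is the lowest mouse in every group of genes.

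Complex I, the NADH dehydrogenase, was measured by 38 genes, and all 38 changes were negative with a median of -0.28. Of these, 2 passed the threshold, against 5.39% of all genes called lower, so that 2 of 38 is near the background share. Ndufs1, the largest core subunit, which carries iron-sulfur clusters, gave 5.21, 5.33 and 5.18 in MRL 1 to 3 and 4.82, 4.72 and 4.84 in LPR 1 to 3. The groups did not overlap, and here LPR 2 was the lowest mouse. It fell by 0.45 on the log2 scale (standard error 0.10, limma adjusted p = 0.0333), to 0.733 times the MRL level. Its probe A_51_P379597 lies at chr1:63190360-63190419 (mm9), and a second, dimmer Ndufs1 probe gave -0.24 (adjusted p = 0.196).

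Ndufa10, an accessory subunit of the membrane arm, gave 4.80, 4.82 and 4.79 in MRL mice and 4.37, 4.50 and 4.45 in LPR mice. The MRL mice differed by little (SD 0.015, n = 3) and all LPR mice lay below them. It fell by 0.37 on the log2 scale (standard error 0.10, limma adjusted p = 0.0497), at probe A_66_P133882, chr1:94348635-94348694 (mm9). The other 2 Ndufa10 probes gave -0.24 and -0.04 and did not pass. Both calls were near the threshold. Leaving out any 1 mouse, MRL 1, MRL 2, MRL 3, LPR 1, LPR 2 or LPR 3, ended both, with adjusted p of 0.0569 to 0.123 for Ndufs1 and 0.0511 to 0.153 for Ndufa10. The slide row as a block, which sets LPR 1 alone against the MRL mice, gave 0.181 and 0.140, and the slide column as a block 0.181 and 0.339.

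The other core subunits did not pass. Ndufs3 had a log2 change of -0.29. Ndufs7 and Ndufs8, which carry the last iron-sulfur clusters before ubiquinone, had -0.24 and -0.29. Ndufv1, which binds NADH and FMN, and its partner Ndufv2 had both -0.30. All 7 core subunits were negative with a median of -0.30. For 5 of the 7 all LPR mice lay below all MRL mice, against 25.4% of all genes. The 29 accessory subunits had a median of -0.27, and 1 of them, Ndufa10, passed, against 5.39% of all genes called lower. Ndufa8 lay at the upper end of the accessory subunits with -0.06.

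The 8 assembly factors, which build complex I and leave it, had a median of -0.22, and none passed (0 of 8). At an unadjusted p under 0.05, 3 of the 8 were lower, against 18.7% of all genes. Ndufaf1 had the most negative change, -0.30, and Ndufaf8 the least, -0.02. By mouse their median deviations were -0.28, -0.20 and -0.18 in LPR 1 to 3. The gap between LPR 1 and LPR 2 was thus smaller than for the subunits of complex I, where these values were -0.46, -0.10 and -0.27.

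Complex II, succinate dehydrogenase, had 4 negative changes and none passed (0 of 4). Lower at an unadjusted p under 0.05 were 2 of the 4, against 18.7% of all genes. Sdha, the flavoprotein that oxidizes succinate, gave 5.46, 5.61 and 5.51 in MRL mice and 5.28, 5.06 and 5.28 in LPR mice. All LPR mice lay below the MRL mice, and the log2 change was -0.32 (adjusted p = 0.112). Sdhb, the iron-sulfur subunit, had -0.26, and the membrane anchors Sdhc and Sdhd had -0.31 and -0.24. For 3 of the 4 genes, Sdhb being the exception, all LPR mice lay below all MRL mice, against 25.4% of all genes. Of the other Sdha probes, A_55_P2617509 had a log2 change of -0.66 (adjusted p = 0.0530), with LPR 2 again the lowest mouse.

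Complex III, the cytochrome bc1 complex, had 8 negative changes between -0.37 and -0.24 and none passed (0 of 8). Lower at an unadjusted p under 0.05 were 3 of the 8, against 18.7% of all genes. Uqcrc2, a core protein, was the nearest to the threshold. It gave 5.81, 5.91 and 5.87 in MRL mice and 5.40, 5.53 and 5.56 in LPR mice, without overlap. The log2 change of Uqcrc2 was -0.37 (standard error 0.10, adjusted p = 0.0576). The other core protein, Uqcrc1, had -0.29 and Uqcrfs1, the Rieske iron-sulfur protein, had -0.28. For 5 of the 8 genes all LPR mice lay below all MRL mice, against 25.4% of all genes. Uqcrc2 passed under 4 of 21 alternatives, the methods' t-test among them, and Ndufaf7 passed in that test as well.

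**Figure D3:**
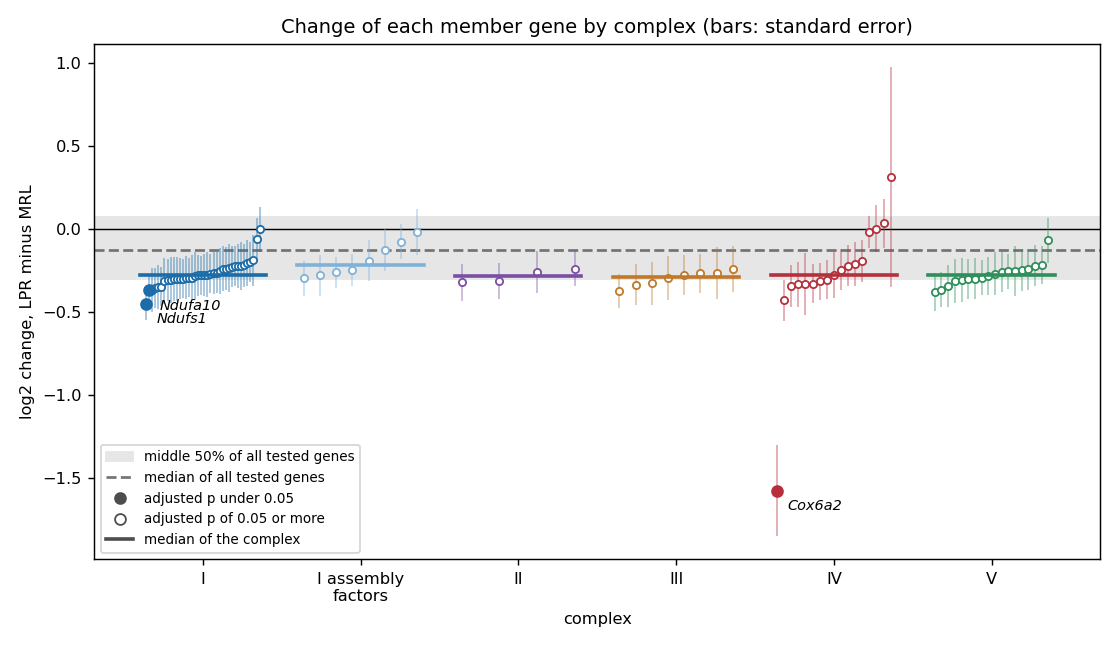
Log2 change, LPR minus MRL, of each of the 93 genes by complex, with its standard error. Filled points passed an adjusted p under 0.05, coloured lines are medians of a complex, and the grey band and dashed line are the middle 50% and the median of all tested genes. The medians of complexes I to V lie at -0.28 or -0.29, below the dashed line at -0.12, and Cox6a2 lies apart at -1.57.

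Complex IV, cytochrome c oxidase, was the only complex with changes of either sign, 14 negative and 3 positive among 17 tested genes, with a median of -0.28. It is also the complex with alternative nuclear subunits, forms that most cells use and forms found in muscle, brown fat, lung or testis. The 10 ubiquitous forms had a median of -0.29, between -0.34 and -0.19, and none passed (0 of 10). At an unadjusted p under 0.05, 5 of the 10 were lower, against 18.7% of all genes. Cox4i1 had a log2 change of -0.19, Cox5a of -0.22 and Cox5b of -0.31. For 6 of these 10 genes all LPR mice lay below all MRL mice, against 25.4% of all genes.

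Cox6a2, the form of subunit 6a of heart and skeletal muscle that is also present in brown fat, had the most negative change of all members. It gave 0.01, 0.79 and 1.00 in MRL 1 to 3 and -1.27, -0.76 and -0.91 in LPR 1 to 3. All LPR mice lay below all MRL mice, though MRL 1 lay between the other MRL mice and the LPR mice. It fell by 1.57 on the log2 scale (standard error 0.27, limma adjusted p = 0.0126), to 0.336 times the MRL level. It was measured by 1 probe, A_51_P509997, at chr7:135349160-135349219 (mm9), which was above background on all 6 arrays. Cox6a1, the ubiquitous form, gave 8.33, 8.47 and 8.45 in MRL mice and 7.97, 8.29 and 8.26 in LPR mice, a log2 change of -0.24 (adjusted p = 0.236). The Cox6a2 signal relative to that of Cox6a1 changed by -1.33 on the log2 scale. An exact two-sided permutation test of this ratio gave p = 0.1, the smallest p that 3 against 3 mice allow, and 6 such ratios of paired forms were computed. The other 5 gave exact p of 0.2 to 0.9. The Cox6a2 call was kept without each mouse in turn, with adjusted p of 0.00284 to 0.0424. It was lost with the slide row as a block (adjusted p = 0.0596) and in the methods' t-test (adjusted p = 0.0794).

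Some adipose transcripts differed between the groups as well. Among all tested genes 5.39% were lower and 7.12% higher. Of the 4 tested markers of brown adipose tissue, Ucp1, the uncoupling protein, and Ppargc1a were lower in LPR mice, Cidea had a log2 change of -2.95 (adjusted p = 0.0605), and Dio2 had a positive one of 0.91 (adjusted p = 0.152). Ucp1 fell by 4.29 on the log2 scale (adjusted p = 0.0333) and cleared the background in 3 of 3 MRL mice and 1 of 3 LPR mice, so that the size of its change rests in part on LPR signals not above background. Its signals were -4.38, -7.32 and -8.13 in LPR 1 to 3. The summed signal of these markers, in multiples of the 75th percentile of the array, was 9.72 to 11.3 in MRL mice and 3.73 to 6.10 in LPR mice. Ppargc1a, with a mean log2 signal of 2.64 against -0.92 for Cidea, made up most of this sum. It is also listed below as a regulator of mitochondrial genes. Of the 6 markers of adipose tissue 1 passed, Fabp4, and the summed signal was 42.8 to 57.2 in MRL mice and 33.4, 33.1 and 11.5 in LPR 1 to 3, with LPR 3 apart. Of the striated muscle markers, 4 of 7 were tested and 1, Acta1, was higher. Myh1, a fast muscle myosin, had a log2 change of -1.25 (adjusted p = 0.0575), with all LPR mice below all MRL mice. The summed signal of these markers was 0.461 to 0.697 in MRL mice and 0.432 to 0.514 in LPR mice. Ckm, Mb and Myh2 were not above background on enough arrays to be tested. The part of adipose tissue and of muscle in the Cox6a2 signal was not tested.

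The other tissue-restricted forms did not pass. Cox7a1, the form of muscle and brown fat, gave 3.68, 4.02 and 3.74 in MRL mice and 3.32, 3.42 and 3.41 in LPR mice. The groups did not overlap and the log2 change was -0.43 (standard error 0.12, adjusted p = 0.0687), whereas its counterpart Cox7a2 had -0.33. Cox8b, also a form of muscle and brown fat, gave 2.21, 2.26 and 2.57 in MRL mice and 2.32, 2.24 and 2.58 in LPR mice. Its groups overlapped, and its log2 change was 0.04, against -0.21 for Cox8a. Cox4i2, the form of lung, had -0.02 with a standard error of 0.10, and Cox6b2, the form of testis, had -0.33 with LPR mice spread from 0.76 to 1.46. Its counterpart Cox6b1 had -0.31. Cox7b2, a testis form near background, had 0.31 with a standard error of 0.66, against -0.33 for Cox7b.

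Cox7a2l, which links complexes III and IV into supercomplexes, had a log2 change of 0.00 with a standard error of 0.14. Its values were 5.67, 5.93 and 5.78 in MRL mice and 5.56, 5.99 and 5.83 in LPR mice, and the groups overlapped. Ndufa4, a subunit now counted with complex IV, had -0.31 (adjusted p = 0.188), and its paralog Ndufa4l2, which is induced in hypoxia, had 0.00 (adjusted p = 0.993). The Ndufa4l2 signal relative to that of Ndufa4 changed by 0.31 on the log2 scale. Changes this small had no settled sign, and those of Cox7a2l, Ndufa4l2, Cox4i2, Cox8b and Atp5g2 took the opposite sign under 3 to 10 of 21 alternatives.

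**Figure D4:**
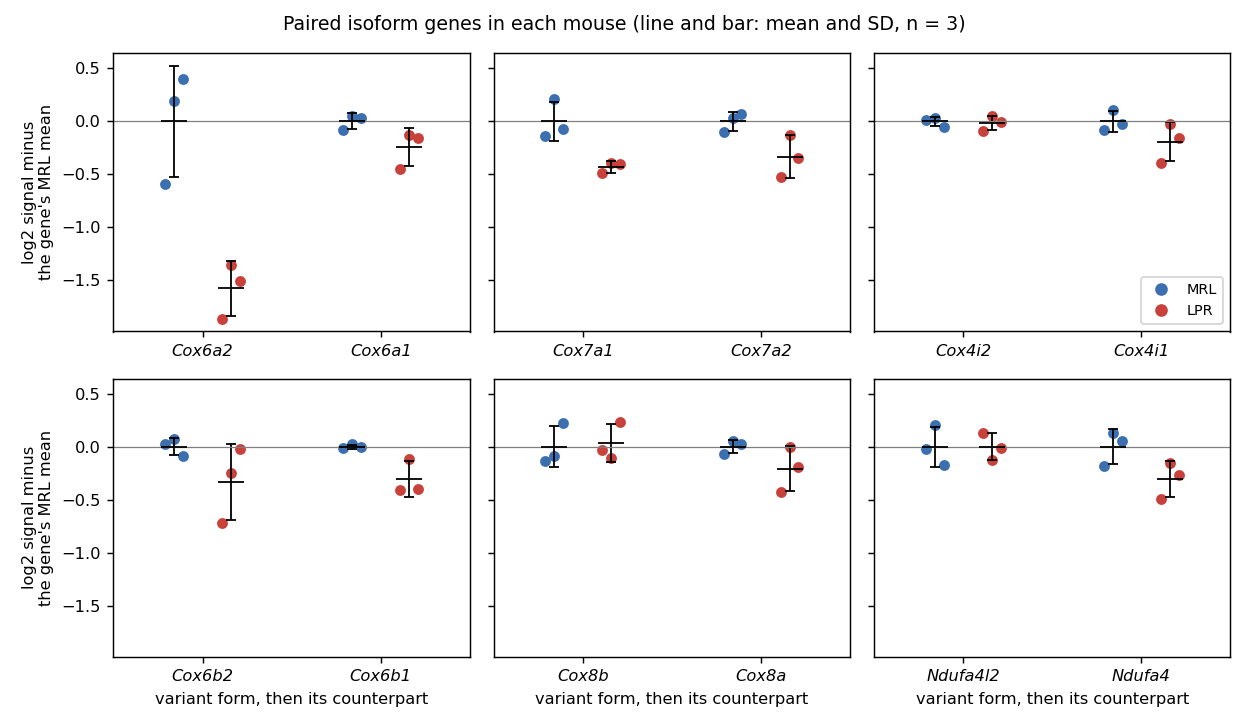
Log2 signal minus the gene's MRL mean in each mouse for 6 pairs of a variant form and its counterpart. Blue points are MRL mice, red points LPR mice, and the line and bar are the mean and SD of 3 mice. The 3 LPR points of Cox6a2 lie below all MRL points, and for Cox8b, Cox4i2 and Ndufa4l2 the groups overlap.

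Complex V, ATP synthase, had 18 negative changes with a median of -0.28, and none passed (0 of 18). Lower at an unadjusted p under 0.05 were 9 of the 18, against 18.7% of all genes. The F1 head makes the ATP. Its catalytic subunit Atp5b gave 8.01, 8.06 and 8.04 in MRL mice and 7.66, 7.97 and 7.84 in LPR mice. The groups did not overlap and the log2 change was -0.22 (adjusted p = 0.250). Atp5a1, its partner in the ring, had -0.26, and Atp5c1, Atp5d and Atp5e of the central stalk had -0.25, -0.31 and -0.34. For all 5 F1 genes all LPR mice lay below all MRL mice, against 25.4% of all genes.

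The 10 genes of the membrane part and the side stalk had a median of -0.30. The 3 genes Atp5g1, Atp5g2 and Atp5g3 encode the same mature c subunit of the rotor ring with different import sequences. Atp5g3 had -0.36 (adjusted p = 0.0714) and Atp5g1 had -0.31 (adjusted p = 0.172), without overlap of the groups. Atp5g2 had -0.07 (adjusted p = 0.760), with 6.34 to 6.54 in MRL mice and 6.19 to 6.59 in LPR mice. Atp5k, the e subunit at which synthase dimers meet, had -0.38 (adjusted p = 0.0791). The pseudogene Atp5c1-ps had -0.25, as Atp5c1 itself had, and signal shared between them cannot be told apart.

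Probes of 1 gene mostly gave the same sign. Of 37 members with several tested probes, all probes were negative for 33, and the signs were mixed for Ndufa4l2, Uqcrb, Atp5d and Atp5g1. Over all 141 tested probes of the members, 134 changes were negative, 4 probes were lower at an adjusted p under 0.05 and 0 were higher, whereas 6.07% and 6.54% of all tested probes were. The fourth was a dim Atp5j probe, A_55_P2014114, with a log2 change of -0.78 (adjusted p = 0.0395), whereas the bright Atp5j probe had -0.29 (adjusted p = 0.121). Another Atp5g1 probe, A_55_P1956064, had 0.31 (adjusted p = 0.260), in contrast to -0.31 at the probe that stands for the gene.

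Other genes of mitochondrial metabolism were followed in lists by function, which were drawn up with earlier results of these data known. Among all tested genes 5.39% were lower and 7.12% higher. Of 14 enzymes of the TCA cycle, which feeds NADH and succinate into the chain, 1 was lower and 0 higher, and all 14 changes were negative with a median of -0.32. Suclg2, a succinyl-CoA ligase subunit, gave 2.56, 2.51 and 2.39 in MRL mice and 1.85, 2.04 and 1.79 in LPR mice, and fell by 0.60 on the log2 scale (adjusted p = 0.0188). Of 7 electron carriers and subunits outside the name rule, 1 was lower and the median was -0.29. This was Etfa, which carries electrons from fatty acid oxidation, and it fell by 0.47 (adjusted p = 0.0249). Cycs, cytochrome c, had -0.29 and Cyc1, cytochrome c1, had -0.26.

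Assembly factors outside the name rule and transport genes of the outer and inner membrane had medians between those of all genes and of the members. The 12 assembly factors of complex IV had a median of -0.19, the 12 of complexes II, III and V had -0.21, and 10 outer membrane and carrier genes had -0.19. None of these genes passed in either direction. At an unadjusted p under 0.05, 1, 1 and 2 of them were lower, against 18.7% of all genes. The 17 genes of glycolysis, which makes ATP in the cytosol, had a median of -0.15. Of these, 0 were lower and 2 higher, against 5.39% and 7.12% of all genes. The 2 were the hexokinases Hk2, which rose by 1.73 on the log2 scale (adjusted p = 0.0024), and Hk3, which rose by 3.46 (adjusted p = 0.000394). Both were dim in MRL mice, with mean log2 signals of -4.52 and -2.39. The bright hexokinase Hk1, with 6.32 in MRL mice, had a log2 change of 0.09. Of the 17 glycolysis changes, 13 were negative.

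Of 18 regulators of mitochondrial genes, 2 were lower and 0 higher, against 5.39% and 7.12% of all genes, and the median was -0.28. Ppargc1a, the coactivator PGC-1 alpha, gave 3.24, 3.05 and 3.07 in MRL mice and 2.40, 1.82 and 2.27 in LPR mice, and fell by 0.96 (adjusted p = 0.0132). Ppara, a nuclear receptor of fatty acid oxidation, gave 3.76, 4.05 and 4.49 in MRL mice and 3.03, 3.27 and 3.33 in LPR mice, and fell by 0.89 (adjusted p = 0.0322). For both genes the groups did not overlap, and their part in the subunit signals was not tested. Nrf1, whose palindrome was searched above, had 0.14 (adjusted p = 0.392), and Esrra, an estrogen-related receptor, had -0.22 (adjusted p = 0.277). Gabpa had -0.25 (adjusted p = 0.345) and Tfam, a transcription factor of mitochondrial DNA, had -0.26 (adjusted p = 0.180).

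Marker lists of the cells in the samples also differed. Among all tested genes 5.39% were lower and 7.12% higher, and 18.7% and 10.6% at an unadjusted p under 0.05. Of 8 markers of the proximal tubule, 3 were lower (Slc5a12, Slc5a2 and Lrp2), the median was -0.33, and the summed signal was 629 to 675 in MRL mice and 480 to 535 in LPR mice. Of 6 markers of the thick ascending limb and distal convoluted tubule, none passed, with 4 lower and 1 higher at an unadjusted p under 0.05, the median was -0.52, and the summed signal was 342 to 370 and 282 to 298. All 5 tested macrophage markers were higher, with a summed signal of 14.8 to 18.5 and 41.6 to 47.7. Of the 5 tested T cell markers 4 were higher (2.43 to 2.82 and 8.12 to 9.46), and of 5 B cell markers 3 were higher (1.37 to 1.55 and 4.22 to 5.51). In each of these 5 lists the summed signals of the groups did not overlap. Umod, with a mean log2 signal of 7.96 against 4.88 for Kcnj1, made up most of the thick ascending limb sum. Its log2 change was -0.20 (limma adjusted p = 0.216). In MRL mice Csf1r, with a mean of 3.78 against -0.29 for Mpeg1, made up most of the macrophage sum. Of 7 collecting duct markers 1, Slc26a4, was lower, with a median of -0.05, and of 5 podocyte markers none passed (19.3 to 22.0 and 20.2 to 26.1). Of 5 tested red cell markers none passed (53.3 to 414 and 315 to 652), with 4 higher at an unadjusted p under 0.05 and a median of 2.05. No defining marker of the proximal tubule was at background. The part of the cell make-up in the lower subunit signals was not tested.

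**Figure D5:**
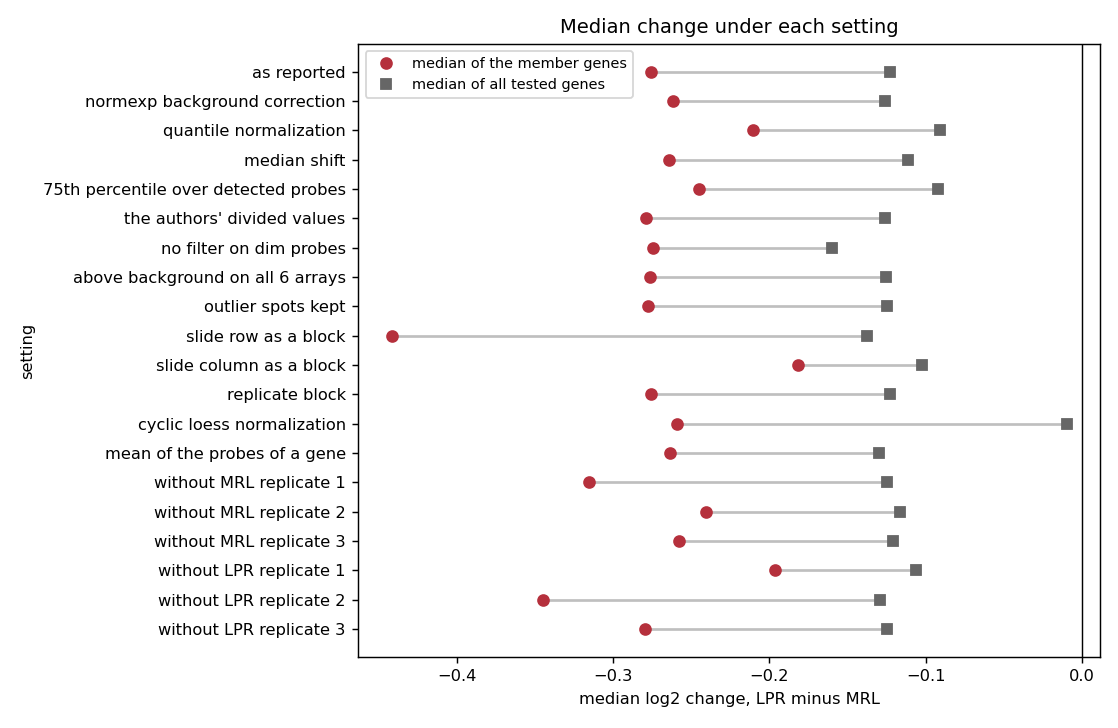
Median log2 change, LPR minus MRL, of the member genes (red circles) and of all tested genes (grey squares) for each way of processing the arrays and with each mouse left out. The members lie below all genes in every line, with medians from -0.44 with the slide row as a block to -0.18 with the slide column as a block.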

How the data were processed

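The 6 arrays are Agilent single-colour mouse arrays whose probes were placed on mm9 (NCBI37) per the labels. The authors deposited the intensity of each spot from Agilent Feature Extraction 12.0.3.1, background-subtracted and not scaled between arrays, and a table of these intensities over each array's 75th percentile, which is a signal ratio and served as an alternative. The medians of its columns were 0.0818 to 0.0883, and it matched the scanner values to within 0.0279%. The study names Trizol and the labels RNeasy for RNA isolation.

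Control spots and 73 to 90 outlier spots per array were left out. The values were taken to log2, the 75th percentile of the array was subtracted, and spots of a probe were averaged. Probes well above background on at least 3 of 6 arrays were tested with limma 3.58.1 in R 4.3.3, two-sided, with Benjamini-Hochberg adjustment over all 39916 probes and a threshold of 0.05. A further 8 such probes with an outlier spot were left out. Figures were drawn with matplotlib 3.10.9. The number of arrays limits the precision. A simulation with known changes (seed 11) was used to test the steps.

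The brightest tested probe stands for a gene. Genes were named when they passed the threshold, as core or catalytic subunits, as paired forms of 1 subunit, or where their probes differed in sign; others named at the ends of a range were chosen after their values were seen. The members and lists were chosen with earlier results of these data known. Alternatives were other background corrections, scalings, filters, probe rules and fits, the methods' t-test, slide row, slide column or replicate number as a block, and each mouse left out. Cyclic loess was added after seeing the data. A gene is not reported here by name and remains in the counts and medians.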

Additional observations from a re-analysis of the deposited data

How the results depend on the processing

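The median change of the members was negative under every alternative run, and 0 members were higher in each of them. The number of lower members, 3 of 93 as reported against 5.39% of all genes, was 10 with normexp (10.2% of all genes), 7 with an intensity trend in the variance (7.88%), 5 with cyclic loess (2.47%), 1 with quantile normalization (4.83%), 1 of 94 without a filter on dim probes (1.75%), 1 with the slide column as a block (2.45%) and 0 with the slide row as a block (1.24%). Without each mouse in turn it was 1 to 3, against 1.88% to 5.30% of all genes. It was 1 without MRL 1, MRL 2, MRL 3, LPR 1 or LPR 3 (1.99%, 1.88%, 1.98%, 3.38% and 2.08% of all genes). The slide row as a block sets LPR 1 alone against the 3 MRL mice, since the other LPR mice share their row with no control. Its median was therefore that of LPR 1, -0.44 for all members, -0.46 for complex I, -0.47 for complex III, -0.45 for complex IV and -0.43 for complex V. Cyclic loess moved the median of all genes from -0.12 to -0.01 and that of the members to -0.26, a gap of -0.25 in place of -0.15, and the complex I assembly factors to -0.11. The cause of these differences was not tested. Without each mouse in turn the median of all members was -0.34 to -0.20. Same-numbered mice had correlations of deviations from the group mean of 0.12, 0.02 and 0.01, and different-numbered mice of -0.07 to 0.05. Deviations from a mean of 3 mice depend on each other, so these values cannot settle whether the mice were paired. With the replicate block 1 member was lower, Cox6a2 (2.53% of all genes), and the median was -0.28.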
